A study of Mus musculus with 4 samples.

Results

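The genes described here are the tumor necrosis factor (TNF) superfamily ligands and receptors measured in leukemic mouse bone marrow. Members were taken by symbol: every gene whose name in the array annotation starts with Tnfsf or Tnfrsf, together with Tnf, Lta, Ltb, Fasl, Cd40lg, Cd70, Eda, Ltbr, Fas, Cd40, Cd27, Ngfr, Edar and Eda2r. This gave 43 of 19938 genes, 16 ligands and 27 receptors, each measured by 1 probe set. Marrow came from C57BL/6 mice with leukemia that carries MLL-AF9, an oncogenic fusion found in acute leukemias. The Hes1-null group is MLL-AF9/Hes1-/- marrow (2 arrays) and the wild-type group is MLL-AF9/Hes1+/+ marrow (2 arrays), so both groups carry the oncogene. Hes1 encodes a transcriptional repressor that acts downstream of Notch, and the comparison asks what its loss does to gene expression in this leukemia. The animals' age, the way MLL-AF9 was introduced and the cells in which Hes1 was deleted are not given in the sources used here, nor is it said that the samples came from separate animals.

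Ligands of the TNF superfamily are mostly trimeric proteins of the cell surface that proteases can release, and each one clusters its receptor on contact. Receptors with a death domain in their cytoplasmic tail recruit adaptors such as TRADD and FADD and can start apoptosis, while the others bind TRAF proteins and activate NF-kB and MAP kinases. Some receptors lack a signalling tail and act as decoys. In bone marrow the family is known for inflammatory signalling by TNF, survival of B cells by BAFF, bone resorption by RANK ligand and costimulation of T cells by members such as GITR, OX40 and CD27.

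Levels are log2 of the deposited array intensity, and every difference is the Hes1-null mean minus the wild-type mean given ± SE. The SE is limma's moderated standard error (2 arrays for each genotype), which also borrows from the spread of other genes of like level. Brightness depends on the probes, so levels of different genes are not set against each other. Array medians of intensity ran from 65.1 to 66.6 on the Hes1-null arrays and from 65.0 to 67.3 on the wild-type arrays. Hes1 itself did not separate the groups, at 5.43 and 5.84 on the Hes1-null arrays, against 5.59 and 5.79 on the wild-type arrays (adjusted p = 0.968 by limma). Hes1-null therefore stands for the label, which the level of Hes1 does not check. The position of its probes relative to the deletion is unknown here, and its level lay below the median of all genes (6.36) on every array. The reason why Hes1 did not separate the groups was not tested. Among genes that mark this leukemia, the MLL fusion target Hoxa9 was at 10.50 and 10.78 on the Hes1-null arrays and at 10.56 and 10.40 on the wild-type arrays. Mpo, a granule enzyme gene of myeloid cells, was at 11.74 and 10.13 on the Hes1-null arrays and at 12.83 and 12.69 on the wild-type arrays. The Hes1-null replicates were less alike (r = 0.982 across genes) than the wild-type replicates (r = 0.995), and Xist lay at 7.25 on Hes1-null replicate 2 against 11.7 or more on the other arrays.

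None of the 43 members passed an adjusted p of 0.05, and the smallest adjusted p among them was 0.227. Over all genes 14 were called higher (0.0702%) and 15 lower (0.0752%) in Hes1-null marrow at that threshold, by limma with Benjamini-Hochberg adjustment. The test recovered only 15.2% of 2-fold changes in simulated data, so a missing call does not show that a member was unchanged. At an unadjusted p of 0.05, 2 members were higher, the receptor genes Tnfrsf18 and Tnfrsf23, against a background of 3.51% of all genes. Another 4 were lower, the ligand gene Cd40lg and the receptor genes Tnfrsf21, Tnfrsf26 and Tnfrsf14, against a background of 4.78%. Genotypes did not overlap for 6 members that were higher (17.4% of all genes) and 14 that were lower (20.6% of all genes). Cd40lg was the only member at least 2-fold apart without overlap, and it was lower, as were 1.22% of all genes by that rule, while 0.777% were higher and no member was. In whole marrow, fewer cells of a type and less RNA per cell cannot be told apart.

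**Figure D1:**
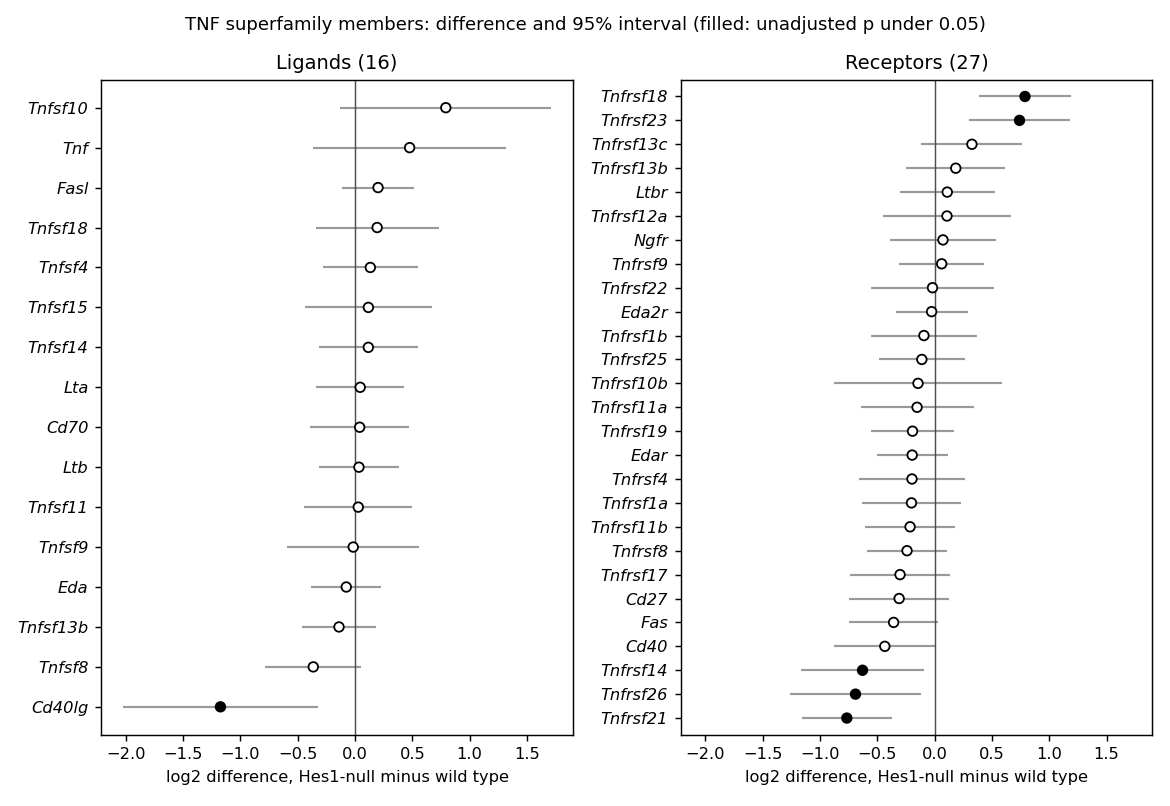
Log2 difference (Hes1-null minus wild type, x axis) of the 16 ligand genes (left) and 27 receptor genes (right), with 95% intervals from limma as bars. Filled points mark the 6 members with an unadjusted p under 0.05, and none of the 43 passed an adjusted p of 0.05.

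Positive differences were the majority among ligands and negative ones among receptors, and the contrast between the groups was not tested. Of the 16 ligands 11 had a positive and 5 a negative difference, with a median of 0.04. Only 3 ligands lay above the median level of all genes. Of the 27 receptors 8 had a positive and 19 a negative difference, with a median of -0.15. Over all genes 9261 had a positive and 10677 a negative difference, with a median of -0.02. The genotypes did not overlap for 10 receptors with a negative and 5 with a positive difference. They did not overlap for 4 ligands with a negative and 1 with a positive difference. Over all genes these shares were 20.6% lower and 17.4% higher, so the 5 receptors and the 4 ligands are near the background. The ligand median followed single arrays and was -0.10 without Hes1-null replicate 2 but 0.23 without Hes1-null replicate 1. The receptor median was -0.066 without Hes1-null replicate 1 and kept its sign whichever array was left out. The number of receptors at an unadjusted p of 0.05 was 5 with all arrays, 2 higher and 3 lower, beside 3.51% and 4.78% of all genes. That number changed when 1 array was left out, as did the calls over all genes.

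The promoters of the receptors at an unadjusted p of 0.05 that the RefSeq table lists (build GRCm38.p6) are shown because Hes1 is known as a repressor that binds the N box, CACNAG, and the class C site, CACGCG, in DNA. Each runs from 250 bases before to 50 after the gene's start, 5′ to 3′ as listed, and capitals mark a match to either motif on either strand. The windows are chr4:156026072-156026371, plus strand for Tnfrsf18, chr7:143685826-143686125, minus strand for Tnfrsf23, chr17:43016305-43016604, plus strand for Tnfrsf21 and chr4:154928028-154928327, minus strand for Tnfrsf14.
Tnfrsf18: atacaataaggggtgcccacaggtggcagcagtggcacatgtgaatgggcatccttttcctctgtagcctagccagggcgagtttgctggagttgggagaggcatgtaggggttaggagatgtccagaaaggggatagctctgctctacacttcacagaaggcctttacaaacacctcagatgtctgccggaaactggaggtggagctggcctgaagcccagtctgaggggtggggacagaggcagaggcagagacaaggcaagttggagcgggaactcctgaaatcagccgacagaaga
Tnfrsf23: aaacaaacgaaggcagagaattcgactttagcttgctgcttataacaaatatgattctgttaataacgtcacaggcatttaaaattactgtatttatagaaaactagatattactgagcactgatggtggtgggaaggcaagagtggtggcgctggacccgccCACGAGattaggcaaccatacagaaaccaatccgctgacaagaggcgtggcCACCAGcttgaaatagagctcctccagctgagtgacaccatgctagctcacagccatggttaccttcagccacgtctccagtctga
Tnfrsf21: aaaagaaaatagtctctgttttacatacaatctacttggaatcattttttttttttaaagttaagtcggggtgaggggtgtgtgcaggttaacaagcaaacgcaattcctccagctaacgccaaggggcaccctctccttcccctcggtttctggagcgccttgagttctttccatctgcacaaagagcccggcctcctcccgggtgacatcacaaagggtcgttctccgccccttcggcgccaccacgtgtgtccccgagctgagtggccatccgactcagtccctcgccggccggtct
Tnfrsf14: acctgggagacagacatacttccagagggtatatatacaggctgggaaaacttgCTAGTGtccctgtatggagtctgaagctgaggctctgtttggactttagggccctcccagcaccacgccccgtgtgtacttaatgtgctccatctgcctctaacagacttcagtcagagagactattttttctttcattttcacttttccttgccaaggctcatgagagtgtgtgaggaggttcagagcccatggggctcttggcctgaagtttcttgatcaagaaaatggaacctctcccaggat

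Tnfrsf23 held 2 N boxes, which start 87 and 36 bases before the gene's start, and Tnfrsf14 held 1, which starts 196 bases before it. The windows of Tnfrsf18 and Tnfrsf21 held neither motif. Among all 32851 listed promoters, 42.5% hold an N box and 9.27% a class C site. A promoter was listed for 34 members, of which 14 (41.2%) hold an N box and 2 (5.88%) a class C site, for each member in its first listed promoter. These matches describe the letters of the window and show no binding.

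Tnfrsf18, which encodes GITR, a costimulatory receptor of T cells and regulatory T cells, stood highest among the receptor differences. It lay at 7.42 and 7.21 on the Hes1-null arrays, against 6.49 and 6.56 on the wild-type arrays. Both Hes1-null arrays were above both wild-type arrays, by 0.79 ± 0.16 or 1.73-fold (95% interval 0.39 to 1.19, adjusted p = 0.227 by limma). Its ligand gene Tnfsf18 was dim and overlapped between genotypes, at 4.50 and 5.07 on the Hes1-null arrays, against 4.54 and 4.65 on the wild-type arrays. Tnfrsf4, which encodes the costimulatory receptor OX40 and is the neighbouring gene of Tnfrsf18 on chromosome 4, had a difference of the opposite sign. Its levels were 6.45 and 6.81 on the Hes1-null arrays, against 6.90 and 6.76 on the wild-type arrays (-0.20 ± 0.18, adjusted p = 0.858). Within each array, Tnfrsf18 minus Tnfrsf4 was 0.97 and 0.40 on the Hes1-null arrays and -0.41 and -0.19 on the wild-type arrays. That contrast is a description, since Tnfrsf18 was singled out for its own difference. The OX40 ligand gene Tnfsf4 lay between 4.09 and 4.47 on all arrays, with overlapping genotypes.

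TNF-related apoptosis-inducing ligand (TRAIL), encoded by Tnfsf10, signals death through the receptor of Tnfrsf10b. In mice the genes Tnfrsf22 and Tnfrsf23 encode decoy receptors for it, and they stand next to a related gene, Tnfrsf26, on chromosome 7. Tnfrsf23 lay at 8.40 and 8.29 on the Hes1-null arrays, against 7.49 and 7.71 on the wild-type arrays, and the groups did not overlap (0.74 ± 0.17 or 1.67-fold, adjusted p = 0.304 by limma). Tnfrsf26 went the other way, at 7.19 and 6.65 on the Hes1-null arrays, against 7.53 and 7.69 on the wild-type arrays (-0.69 ± 0.23, adjusted p = 0.509 by limma). Tnfrsf22, which lies between them, was at 7.97 and 7.52 on the Hes1-null arrays and at 7.69 and 7.84 on the wild-type arrays. Its difference was -0.02 ± 0.21 (95% interval -0.55 to 0.52) and turned positive, 0.014 and 0.029, when the arrays were centred or quantile normalized again.

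The outer genes of this cluster had differences of opposite sign on the same arrays. Tnfrsf23 minus Tnfrsf26 was 1.21 and 1.64 on the Hes1-null arrays, against -0.04 and 0.02 on the wild-type arrays. Tnfrsf23 minus Tnfrsf22 was 0.43 and 0.77 on the Hes1-null arrays, against -0.20 and -0.13 on the wild-type arrays. These contrasts follow from the separate differences of the genes and are given as a description. The probe sequences are not used here, so how far these related genes share signal was not tested.

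The ligand gene Tnfsf10 had the largest positive difference of any ligand, 0.79 ± 0.37, but the genotypes overlapped. It lay at 6.42 and 5.51 on the Hes1-null arrays, against 5.51 and 4.84 on the wild-type arrays (adjusted p = 0.664 by limma). Hes1-null replicate 2 was level with wild-type replicate 1, and the difference ranged from 0.33 to 1.25 when arrays were dropped one at a time. Tnfrsf10b, the death receptor gene, lay at 6.12 and 5.25 on the Hes1-null arrays, one above and the other below the wild-type levels of 5.80 and 5.85. Its difference of -0.14 ± 0.29 moved to -0.58 when Hes1-null replicate 1 was left out and to 0.29 when replicate 2 was.

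**Figure D2:**
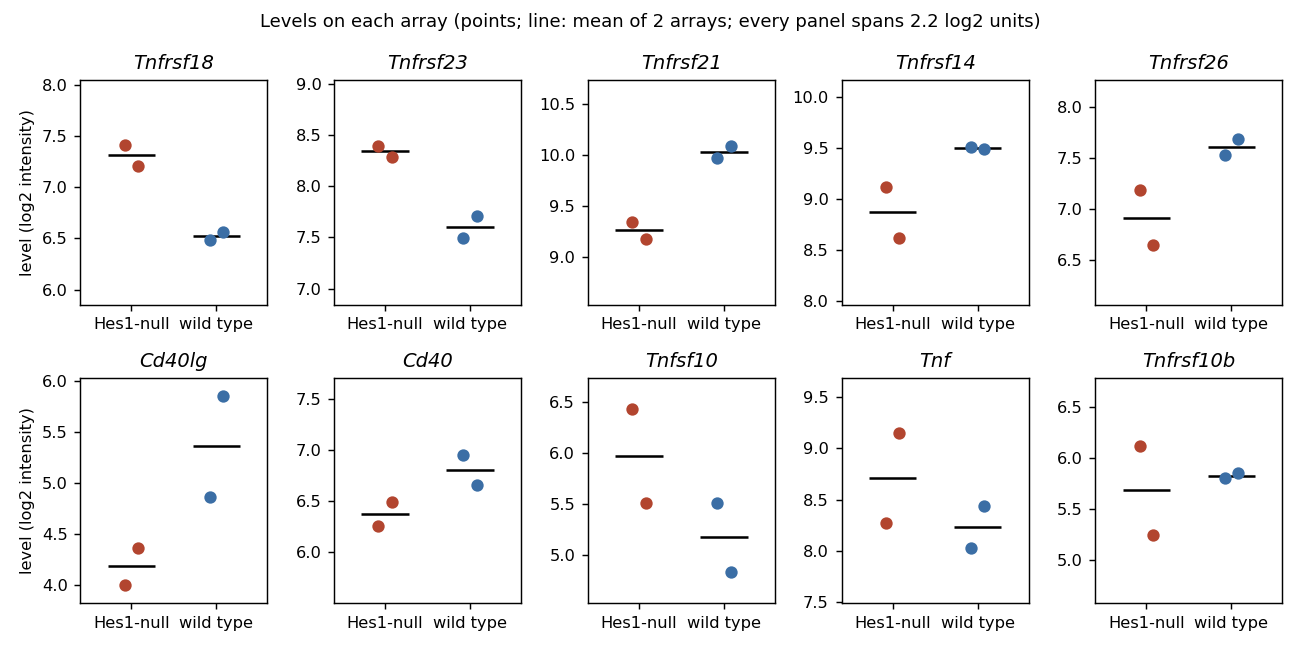
Log2 intensity on each array (points) with the mean of 2 arrays (line) for 10 members, Hes1-null on the left and wild type on the right of each panel. Tnfrsf18 and Tnfrsf23 were higher, and Tnfrsf21, Tnfrsf14, Tnfrsf26, Cd40lg and Cd40 lower, on both Hes1-null arrays, while Tnfsf10, Tnf and Tnfrsf10b overlapped between genotypes.

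Tnfrsf21 encodes death receptor 6, a receptor with a death domain. It lay at 9.34 and 9.18 on the Hes1-null arrays, against 9.96 and 10.09 on the wild-type arrays. Both Hes1-null arrays were below both wild-type arrays, by -0.77 ± 0.16 or 1.70-fold (95% interval -1.16 to -0.37, adjusted p = 0.232 by limma). Leaving out 1 array moved the difference between -0.85 and -0.68.

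Tnfrsf14 encodes HVEM, which binds the ligand LIGHT and the inhibitory lymphocyte receptor BTLA. It lay at 9.12 and 8.62 on the Hes1-null arrays, against 9.51 and 9.48 on the wild-type arrays. All Hes1-null values were lower (-0.63 ± 0.21 or 1.55-fold, adjusted p = 0.529 by limma), with most of the spread between the Hes1-null arrays. The LIGHT gene Tnfsf14 was at 7.56 and 7.42 on the Hes1-null arrays and at 7.26 and 7.48 on the wild-type arrays (0.12 ± 0.17), which overlap. Ltbr, the lymphotoxin beta receptor gene that LIGHT also engages, was at 8.34 and 8.49 on the Hes1-null arrays and at 8.29 and 8.31 on the wild-type arrays (0.11 ± 0.16, adjusted p = 0.917). Its own ligand gene Ltb, lymphotoxin beta, was at 6.21 and 6.32 on the Hes1-null arrays and at 6.18 and 6.28 on the wild-type arrays (0.03 ± 0.14). Lta, lymphotoxin alpha, was at 5.15 and 5.46 on the Hes1-null arrays and at 5.22 and 5.29 on the wild-type arrays (0.04 ± 0.15), so neither ligand gene separated the genotypes. Without Hes1-null replicate 1, Tnfrsf14 (-0.88, adjusted p = 0.0426), Tnfrsf21 (-0.85, adjusted p = 0.0465) and Tnfrsf26 (-0.96, adjusted p = 0.0474) passed the limma threshold, in a fit that called 999 genes in all. That fit has a single Hes1-null array, which is assumed to vary like the wild-type replicates, and these were the closer pair.

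Cd40lg and Cd40 were both lower on both Hes1-null arrays, as were 20.6% of all genes. Cd40lg encodes CD40 ligand, which activated T cells and platelets display, and Cd40 encodes its receptor on B cells, macrophages and dendritic cells. Cd40lg lay at 4.00 and 4.37 on the Hes1-null arrays, against 4.87 and 5.85 on the wild-type arrays (-1.17 ± 0.34, adjusted p = 0.442 by limma). The wild-type replicates were themselves 0.98 apart, and the difference was -0.68 without wild-type replicate 2 and -1.67 without wild-type replicate 1. The probe set was dim: 1 Hes1-null array did not exceed 4.09, the highest level of 4 Y-linked genes on any array. With that array set to the limit, the difference was -1.13, or 2.19-fold. Cd40 lay at 6.26 and 6.49 on the Hes1-null arrays, against 6.95 and 6.66 on the wild-type arrays (-0.43 ± 0.18, 95% interval -0.88 to 0.01, adjusted p = 0.610).

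Most T cell marker genes had lower values beside Cd40lg. Of 8 measured T cell markers, 6 had a negative and 2 a positive difference, with a median of -0.37. At an unadjusted p of 0.05, 3 were lower and 0 higher in Hes1-null marrow, beside 4.78% and 3.51% of all genes. Of these markers 0 passed the adjusted threshold. Among the CD3 genes of the T cell receptor complex, Cd3e and Cd3g were lower and Cd3d was higher on both Hes1-null arrays. Cd3e was at 6.80 and 6.62 on the Hes1-null arrays, against 7.10 and 7.09 on the wild-type arrays. Cd3g was at 5.12 and 4.49 on the Hes1-null arrays, against 5.46 and 5.18 on the wild-type arrays (-0.51 ± 0.24). Cd3d was at 5.41 and 5.25 on the Hes1-null arrays, against 5.08 and 5.20 on the wild-type arrays (0.19 ± 0.13). The summed intensity of the list was 436 and 387 on the Hes1-null arrays, against 985 and 648 on the wild-type arrays. Much of that gap was the costimulatory receptor gene Cd28 (-2.37 ± 0.40). Without Cd28, a choice made after seeing the data, the sums were 365 and 320 on the Hes1-null arrays, against 445 and 415 on the wild-type arrays. Of 6 measured platelet markers, 5 were lower at an unadjusted p of 0.05, with a median of -0.61. The part of these cells in the lower Cd40lg was not tested.

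**Figure D3:**
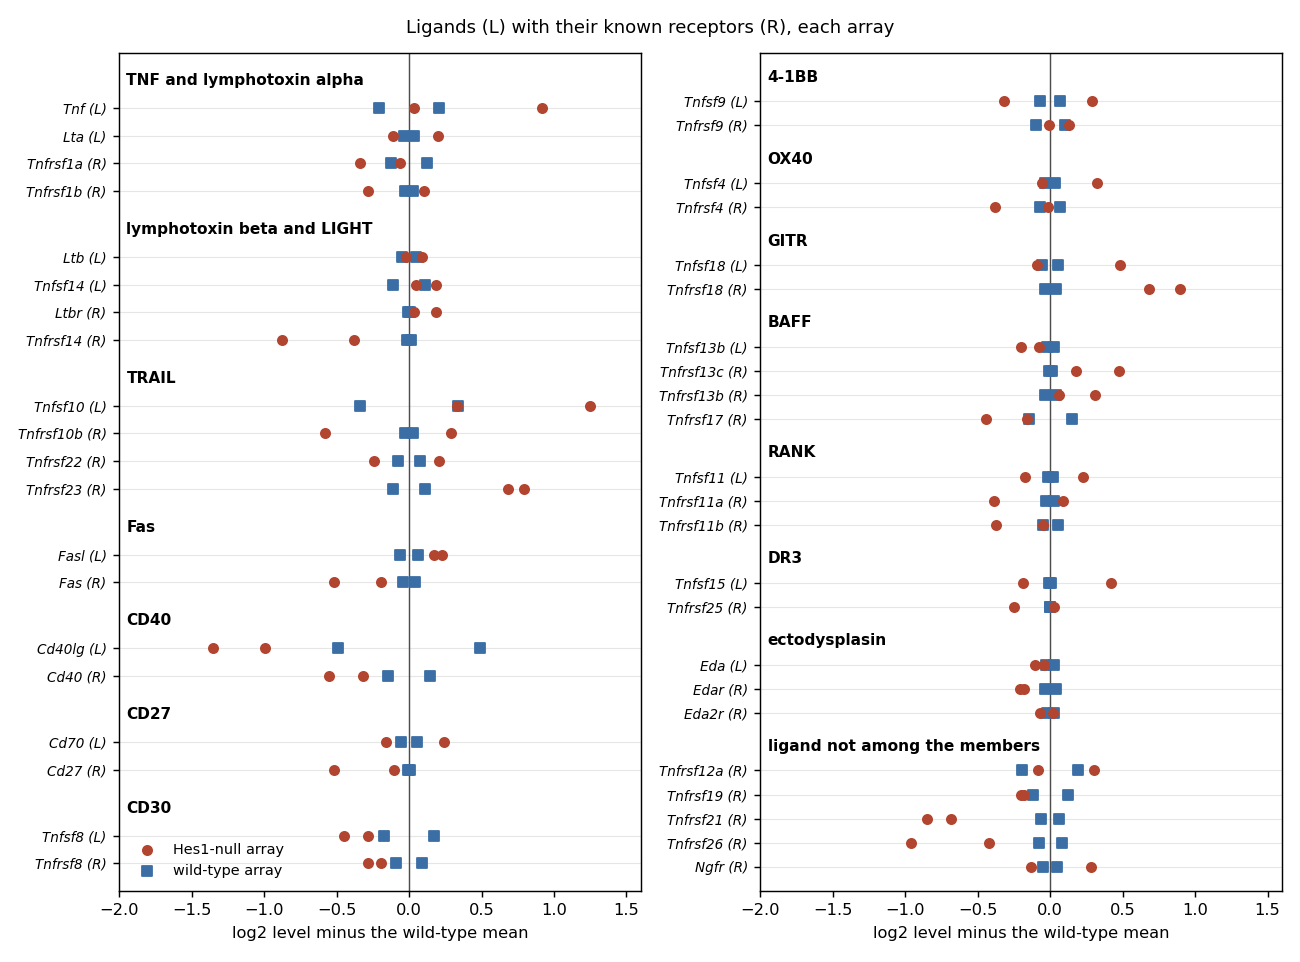
Each array's log2 level minus the wild-type mean of that gene (x axis), with ligands (L) grouped beside their known receptors (R). Hes1-null arrays are circles and wild-type arrays are squares. Both Hes1-null arrays of Cd40lg, Cd40, Tnfrsf14, Tnfrsf21 and Tnfrsf26 lie left of their wild-type arrays, and both of Tnfrsf18 and Tnfrsf23 lie right of them.

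Tnf, the inflammatory cytokine gene that names the family, differed by 0.48 ± 0.33 (95% interval -0.36 to 1.32, adjusted p = 0.791). It lay at 8.27 and 9.15 on the Hes1-null arrays, against 8.03 and 8.44 on the wild-type arrays. Hes1-null replicate 2 was above the others and Hes1-null replicate 1 lay between the wild-type values, so the difference shrank to 0.04 when Hes1-null replicate 2 was left out and reached 0.92 when replicate 1 was. Its receptor genes both had small negative differences. Tnfrsf1a, the death domain receptor, was at 9.96 and 10.23 on the Hes1-null arrays and at 10.18 and 10.42 on the wild-type arrays (-0.20 ± 0.17, 95% interval -0.63 to 0.23). Tnfrsf1b, which lacks a death domain and signals through TRAF2, was at 9.50 and 9.89 on the Hes1-null arrays and at 9.82 and 9.76 on the wild-type arrays (-0.09 ± 0.18, 95% interval -0.56 to 0.37).

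The receptor genes of B cell activating factor (BAFF) had differences of both signs, and none passed the test. Tnfrsf13c, the BAFF receptor gene, was at 7.28 and 7.59 on the Hes1-null arrays, against 7.10 and 7.12 on the wild-type arrays (0.33 ± 0.18, adjusted p = 0.719). Tnfrsf13b, which encodes TACI, was at 8.98 and 9.23 on the Hes1-null arrays, against 8.96 and 8.89 on the wild-type arrays (0.18 ± 0.17, adjusted p = 0.859). Tnfrsf17, the gene of BCMA, a receptor of plasma cells, was at 5.61 and 5.32 on the Hes1-null arrays, against 5.92 and 5.62 on the wild-type arrays (-0.30 ± 0.17, adjusted p = 0.740). In each of these 3 receptor genes the genotypes did not overlap, beside 17.4% of all genes that were higher and 20.6% that were lower without overlap. For Tnfrsf17 the closest arrays lay at 5.61 (Hes1-null) and 5.62 (wild type). The BAFF gene Tnfsf13b was at 5.70 and 5.57 on the Hes1-null arrays and at 5.80 and 5.75 on the wild-type arrays (-0.14 ± 0.13, 95% interval -0.47 to 0.19). Of 9 measured markers of B and plasma cells, 0 passed an unadjusted p of 0.05, and their median was -0.20.

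Fas, the death receptor gene, and Fasl, the gene of its ligand, had differences of opposite sign. Fas lay at 4.66 and 4.99 on the Hes1-null arrays, against 5.22 and 5.14 on the wild-type arrays (-0.36 ± 0.16, adjusted p = 0.634). Fasl lay at 4.80 and 4.86 on the Hes1-null arrays, against 4.57 and 4.69 on the wild-type arrays (0.20 ± 0.12, adjusted p = 0.763). The genotypes did not overlap for either gene, beside 17.4% of all genes that were higher and 20.6% that were lower without overlap. Both probe sets had mean levels below the 25th percentile of genes. Tnfsf8 (-0.36 ± 0.17) and Tnfrsf8 (-0.24 ± 0.14), the genes of CD30 ligand and CD30, were both lower on both Hes1-null arrays, with adjusted p = 0.661 and adjusted p = 0.741. Tnfsf8 was dim, with Hes1-null replicate 2 not above 4.09, and its difference was -0.33 with that array set to the limit. Cd27, a costimulatory receptor gene of lymphocytes and progenitors, was at 5.42 and 5.01 on the Hes1-null arrays and at 5.53 and 5.52 on the wild-type arrays (-0.31 ± 0.17, adjusted p = 0.732). Its ligand gene Cd70 differed by 0.04 ± 0.17.

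None of the remaining members passed an unadjusted p of 0.05. Tnfsf11, the gene of RANK ligand, was at 6.67 and 7.07 on the Hes1-null arrays and at 6.82 and 6.86 on the wild-type arrays (0.03 ± 0.19). Its receptor gene Tnfrsf11a was at 6.43 and 5.96 on the Hes1-null arrays and at 6.32 and 6.37 on the wild-type arrays (-0.15 ± 0.20). The decoy receptor gene Tnfrsf11b, which encodes osteoprotegerin, was at 4.77 and 5.10 on the Hes1-null arrays and at 5.20 and 5.10 on the wild-type arrays (-0.21 ± 0.16). All 3 genes of this bone-remodelling system overlapped between genotypes. Tnfsf9, the 4-1BB ligand gene, was at 5.74 and 6.35 on the Hes1-null arrays and at 5.99 and 6.13 on the wild-type arrays (-0.02 ± 0.23). Its receptor gene Tnfrsf9 was at 6.13 and 6.27 on the Hes1-null arrays and at 6.04 and 6.24 on the wild-type arrays (0.06 ± 0.15). Both overlapped, and the sign of Tnfsf9 turned with centring (0.016) and quantile normalization (0.055). Tnfsf15 (0.12 ± 0.22) and its receptor gene Tnfrsf25 (-0.11 ± 0.15) overlapped between genotypes. In the ectodysplasin system of skin appendages, Eda (-0.08 ± 0.12) and Edar (-0.20 ± 0.12) were lower on both Hes1-null arrays, as were 20.6% of all genes. Eda2r did not exceed 4.09 on any array, so its sign, counted among the receptors above, carries no order. Tnfrsf19 (-0.19 ± 0.14), the gene of TROY, Tnfrsf12a (0.11 ± 0.22), the gene of the TWEAK receptor Fn14, and Ngfr (0.07 ± 0.18), the gene of the p75 neurotrophin receptor, make up the rest.

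Most members varied more between the Hes1-null arrays than between the wild-type arrays. The gap between replicates was larger in Hes1-null marrow for 32 of 43 members, with a median gap of 0.31 in Hes1-null and 0.10 in wild-type marrow. Over all genes the median gaps were 0.25 in Hes1-null and 0.11 in wild-type marrow. The replicates lay 0.5 or more apart for 7 members in Hes1-null marrow, against 2 in wild-type marrow. Tnfsf10, Tnf and Tnfrsf10b had the widest Hes1-null gaps, at 0.92, 0.88 and 0.87. Tnf was higher on Hes1-null replicate 2, and Tnfsf10 and Tnfrsf10b on replicate 1.

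Genes that act beyond the receptors were read from 4 lists. Of 26 measured adaptors and kinases of TNF receptors, 1 was called. Nsmaf, whose product FAN links the receptor encoded by Tnfrsf1a to neutral sphingomyelinase, rose 6.01-fold (2.59 ± 0.22, adjusted p = 0.0424 by limma). It lay at 8.05 and 8.58 on the Hes1-null arrays, against 5.82 and 5.64 on the wild-type arrays. Nsmaf stayed under 0.05 in 6 of 14 alternatives, and its adjusted p ranged from 0.0148 to 0.119 over them. The call was lost without wild-type replicate 1, wild-type replicate 2 or Hes1-null replicate 2, and in some alternatives that kept all arrays. At an unadjusted p of 0.05 the list also held Map3k5 (-0.61 ± 0.21), the gene of the stress kinase ASK1, and its median was 0.09. Mlkl (-0.69 ± 0.28), the effector gene of necroptosis, and Traf6 (0.72 ± 0.30), an adaptor gene, came next by p. Daxx (0.36 ± 0.17) and Bid (0.34 ± 0.17) followed. At the unadjusted threshold 3.51% of all genes were higher and 4.78% lower.

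Of 18 genes that restrain or ubiquitinate the receptor complex, 0 were called and 1 passed an unadjusted p of 0.05, Spata2 (0.54 ± 0.20), which recruits the deubiquitinase CYLD. At that threshold 3.51% of all genes were higher and 4.78% lower. The list had a median of 0.17. Sharpin (0.26 ± 0.11), a subunit gene of the linear ubiquitin ligase, Birc3 (0.30 ± 0.17), the gene of cIAP2, Itch (0.44 ± 0.30), a ubiquitin ligase gene, and the dim Tnip3 (-0.25 ± 0.15) followed. Nfkbia (0.48 ± 0.33), a feedback inhibitor gene of NF-kB, was brighter on Hes1-null replicate 2. Among 8 genes that process ligands, 0 were called and Adam10 (-0.38 ± 0.14) was lower at the unadjusted threshold. Adam17, which encodes the protease that sheds TNF, was at 9.66 and 9.15 on the Hes1-null arrays, against 9.84 and 9.87 on the wild-type arrays (-0.45 ± 0.21). The list's median was -0.22.

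The 18 genes that TNF is known to induce ranged from -2.62 to 4.76, with a median of 0.14. The chemokine gene Ccl3 (1.35 ± 0.11, adjusted p = 0.0387) rose and the adhesion gene Vcam1 (-2.62 ± 0.17, adjusted p = 0.0242) fell, by limma over all genes. Vcam1 is also among the monocyte and macrophage markers. Ccl3 stayed under 0.05 in 8 of 14 alternatives, and its adjusted p ranged from 0.0148 to 0.0807 over them. Vcam1 stayed under 0.05 in 12 of 14 alternatives, and its adjusted p ranged from 0.0106 to 0.0700 over them. Neither kept the call when wild-type replicate 2 or Hes1-null replicate 2 was left out. Ccl3 also lost it with all arrays kept, and its highest adjusted p came from the fit without an intensity trend. At an unadjusted p of 0.05, 7 were higher and 2 lower in Hes1-null marrow, beside the 3.51% and 4.78% of all genes. The higher ones included Cxcl2 (4.76 ± 0.73), Ccl4 (2.66 ± 0.48) and Ptgs2 (1.45 ± 0.30), and the other lower one was Tnfaip2 (-1.40 ± 0.17). These genes answer to many other stimuli too. Immediate early genes, a list that also responds to the handling of cells, had 10 of 14 higher and 0 lower at that threshold, with a median of 1.38. Their summed intensity was 12073 and 19213 on the Hes1-null arrays, against 4199 and 4758 on the wild-type arrays, and their part in the higher chemokine genes was not tested.

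**Figure D4:**
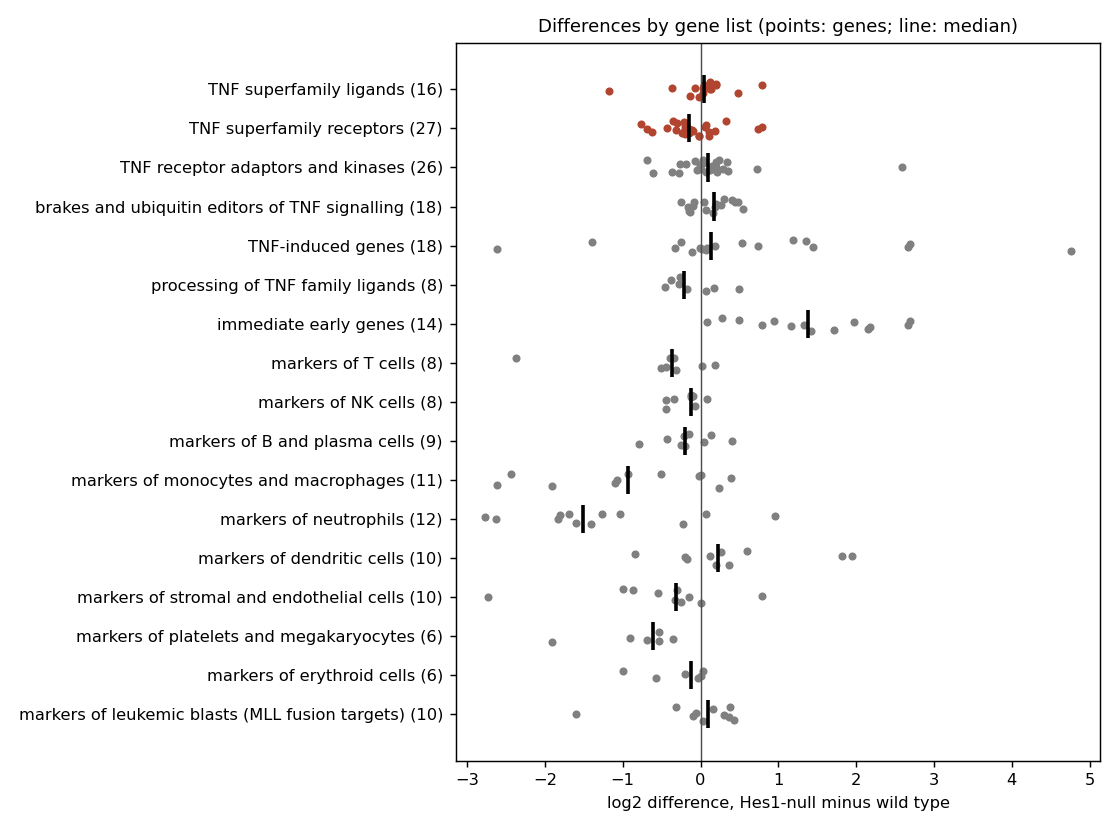
Log2 difference (Hes1-null minus wild type, x axis) of each gene (points) with the list median (line), for the members (red), 4 lists of the TNF pathway, immediate early genes and markers of marrow cell types. Member differences stayed between -1.17 and 0.79, while TNF-induced genes ran from -2.62 to 4.76 and the medians of neutrophil and monocyte markers were -1.51 and -0.93.

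Monocyte and macrophage markers had 8 negative and 3 positive differences, and neutrophil markers had 10 negative and 2 positive ones. Of these, 1 monocyte and 1 neutrophil marker were lower in Hes1-null marrow at an adjusted p of 0.05 by limma. The neutrophil list includes the granule enzyme genes Mpo (-1.83 ± 0.50) and Elane (-1.61 ± 0.18), which do not mark mature cells alone. Its largest positive difference was that of Mmp8 (0.95 ± 0.40). Of 11 measured monocyte and macrophage markers, 7 were lower and 0 higher at an unadjusted p of 0.05, beside 4.78% and 3.51% of all genes. The same shares apply to the counts of the other cell types. The summed intensity of the monocyte and macrophage markers was 6106 and 6503 on the Hes1-null arrays and 10093 and 9621 on the wild-type arrays. Of 12 neutrophil markers, 6 were lower and 0 higher, with a summed intensity of 13423 and 12914 on the Hes1-null arrays and 26630 and 33435 on the wild-type arrays. Stromal and endothelial markers had 4 lower and 1 higher of 10, with a median of -0.32. NK cell markers had 2 lower of 8, with a median of -0.12, and erythroid markers 1 lower of 6, with a median of -0.12. Dendritic cell markers had 2 higher and 1 lower of 10, with a median of 0.23. Markers of leukemic blasts, a list that includes MLL fusion targets, had 1 lower of 10, Kit (-1.60 ± 0.60), with a median of 0.09. The part of these cell types in the lower Tnfrsf14, Tnfrsf21 and Tnfrsf26 and in the higher Tnfrsf18 and Tnfrsf23 was not tested.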

How the data were processed

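Total RNA of leukemic whole bone marrow was hybridised to MoGene-1_0-st-v1 arrays, 1 per sample. The deposited values are intensities that the authors summarised with Affymetrix Expression Console and RMA (per the submitters' processing notes, which give no version). The values are linear, so log2 was taken with nothing added.

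The annotation gives 1 symbol to 21789 of 35556 probe sets, and 19938 genes were kept, each by its probe set of highest mean. No dim gene was dropped from the main test. The genotype effect came from limma 3.58.1 under R 4.3.3, two-sided, with lmFit and a trended eBayes, and p-values were adjusted over all genes by Benjamini-Hochberg. With 2 arrays per genotype residual degrees of freedom were 2, prior ones 3.41 and the median SE was 0.17. The p-values set each difference against the gene's spread between these samples, moderated toward the spread of genes of like level. That spread may be partly technical. The test was checked on simulated data (5 simulations). There all changes were increases, most of them above 2-fold, and both genotypes had the same noise. In these data the Hes1-null replicates were less alike, so recovery here may differ. It recovered 15.2% of simulated 2-fold changes, 82.8% of 4-fold, 96.8% of 8-fold and 99.2% of 16-fold changes. Most changes of 2-fold were therefore missed under those settings.

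The members and lists were chosen with earlier results of these data known, and no list was tested as a whole. Values of all 4 arrays are printed for members with an unadjusted p under 0.05, those at least 2-fold apart without overlap, the brightest 6 ligands and 10 receptors, and their partners, with Fas, Fasl, Cd27, Tnfrsf4 and Tnfrsf17 added after their values were seen. From each pathway list, genes of smallest p were named (up to 6 a list). Outside that rule, Hoxa9, Mpo, Xist, Cd28, Cd3e, Cd3g, Cd3d, Elane, Mmp8 and Kit were added after their values were seen. Promoters came from the RefSeq table of GRCm38.p6. The 14 alternatives covered the replicate block, quantile normalization, median centring, filters at the 25th percentile and median, eBayes without trend or robust, array weights, averaged probe sets, an offset of 16 and leaving out each array.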

Additional observations from a re-analysis of the deposited data

How the results depend on the processing

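With all arrays kept, 0 members passed an adjusted p of 0.05 under any of 10 alternatives. The lowest adjusted p was 0.0879, for Cd40lg with the replicate number as a block. The block gave 89 calls over all genes in place of 29, and 2 ligands at an unadjusted p of 0.05 in place of 1, the second being Tnfsf10 (adjusted p = 0.166, higher in Hes1-null marrow within both numbers). The series' design text calls the samples pairs but does not say what a pair shares or that the numbers mark it. The main test was therefore unpaired. Deviations of same-numbered arrays correlated at 0.050 across genes, which with so few arrays cannot show that pairing is absent. Array weights gave 45 calls over all genes. Keeping genes at or above the 25th percentile or the median level gave 17 and 5 calls over all genes, kept 10 and 3 ligands with 0 at the unadjusted threshold, and the median filter gave a receptor median of -0.056 over the 14 receptors kept. With arrays dropped one at a time, calls over all genes ranged from 6 to 999, called members from 0 to 3, ligands at the unadjusted threshold from 1 to 3, receptors from 1 to 10 and pathway genes from 8 to 33 (13 with all arrays). The share of all genes at the unadjusted threshold in these fits is not given here, so their unadjusted counts have no background. The ligand median ranged from -0.10 to 0.23 and the receptor median from -0.16 to -0.066. Of the 43 members, 26 kept their sign in each of the 14 alternatives that measured them (13 were measured in all, since the filters leave out dim genes), and the other 17 had differences of at most 0.19 in size. Those 17 ranged, with 1 array left out, as follows: Cd70 -0.16 to 0.24, Eda2r -0.071 to 0.019, Lta -0.11 to 0.20, Ltb -0.019 to 0.087, Ngfr -0.14 to 0.28, Tnfrsf10b -0.58 to 0.29, Tnfrsf11a -0.39 to 0.085, Tnfrsf12a -0.086 to 0.30, Tnfrsf1b -0.29 to 0.10, Tnfrsf22 -0.24 to 0.21, Tnfrsf25 -0.25 to 0.028, Tnfrsf9 -0.037 to 0.16, Tnfsf11 -0.17 to 0.23, Tnfsf15 -0.19 to 0.42, Tnfsf18 -0.095 to 0.48, Tnfsf4 -0.054 to 0.32 and Tnfsf9 -0.32 to 0.29. Centring the arrays turned Tnfsf9 (0.016), Eda2r (0.0060, dim on all arrays) and Tnfrsf22 (0.014), and quantile normalization turned Tnfsf9 (0.055) and Tnfrsf22 (0.029). Among the named genes of the pathway lists, and others of the same rank, Furin ranged from -0.00090 to 0.98 and Rhbdf2 from -0.45 to 0.093 with 1 array left out. Cxcl2 and Ccl4 gained an adjusted p under 0.05 with the replicate block, and 9 such genes did without Hes1-null replicate 1. The summed T cell marker intensity in Hes1-null over wild-type marrow was 0.504 with all markers and 0.796 without Cd28. The cause of these changes was not tested.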

Other observations

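One further probe set bears on the family but belongs to no single gene. The annotation pairs it with Tnfsf12, Tnfsf13 and Tnfsfm13 together, the neighbouring ligand genes of TWEAK and APRIL and their read-through transcript, so it was left out of the members. Its level was 6.68 and 6.82 on the Hes1-null arrays, against 7.70 and 7.72 on the wild-type arrays. The difference of -0.96 ± 0.16 had a limma p of 0.00207, adjusted p = 0.237 over all 35556 probe sets, and both Hes1-null arrays were lower. Which of the 3 transcripts carries the signal cannot be told apart here.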
